A study of Homo sapiens with 4 samples.

Results

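Type I keratins are the acidic keratins, which pair with the basic type II keratins to build the intermediate filaments of epithelial cells. The 9 type I keratin genes described here are KRT10, KRT13, KRT14, KRT15, KRT16, KRT17, KRT18, KRT19 and KRT23. They were followed through the sites of RNA contact of PDCD4, an RNA-binding tumour suppressor, in the human line MCF10A, which grows from breast epithelium without being tumorigenic and was labelled WT in genotype. A site was counted for a keratin where the authors' label held its exact symbol, which gave 25 of the 158922 sites of the PDCD4 list and 9 of the 111361 sites of the IgG list.

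All cells were grown with horse serum, epidermal growth factor, insulin, hydrocortisone and cholera toxin, and both groups came from the same cell line, so that they differed in the antibody used for immunoprecipitation (PDCD4 or IgG). In iCLIP, UV light links RNA to protein, and the end of each cDNA is taken to mark the linked nucleotide. There were 2 replicates per antibody, deposited as 1 pooled list each, so no spread between replicates and no p-value could be given. The score of a site is its number of cDNAs, and the scores summed to 409308 for PDCD4 and 276139 for IgG. Per the methods, positions that IgG had crosslinked were taken out of the PDCD4 data ahead of peak calling, so the lists are not independent, and what this removed from each keratin was not analysed here. Across all genes, 721 positions still stood in both lists. Intervals below are 95% intervals that cover counting error only, and they take cDNAs as independent although several can come from 1 site.

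Each keratin pair forms a coiled coil through a central alpha-helical rod, which is flanked by a head and a tail that differ between members. In stratified epithelia, KRT14 and KRT15 partner KRT5 in basal cells, KRT16 and KRT17 accompany KRT6 in activated cells, KRT10 accompanies terminal differentiation, and KRT13 belongs to internal stratified epithelia. KRT18 and KRT19 are the type I keratins of simple epithelia and of luminal breast cells, with KRT8 as their usual partner. KRT18 lies on the plus strand of chromosome 12, while the other 8 members lie on the minus strand of chromosome 17.

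Sequences around the sites that carry the account are shown here first, since most values below rest on a few positions. Each is the transcribed strand of GRCh38, 29 nt long, with the listed nucleotide in capitals. The first set holds the KRT15 sites, which gather in the part of exon 1 that encodes the head (chr17:41518537-41518565, chr17:41518573-41518601 and chr17:41518593-41518621, all minus strand).
KRT15 head, PDCD4, 3 cDNAs: gttttggtggtggcTttggtggtggcgat
KRT15 head, PDCD4, 5 cDNAs: ttttcggtggaggcTttggagggggcgtt
KRT15 head, PDCD4, 5 cDNAs: tggtggaggggctgGtagtgttttcggtg
The second set holds the type I keratin site with the most cDNAs in each list, both in KRT17 (chr17:41624558-41624586 and chr17:41619621-41619649, minus strand).
KRT17 5′UTR, PDCD4, 10 cDNAs: ccggcagccctacaCaacttggggcccct
KRT17 tail, IgG, 8 cDNAs: tccaggatggcaagGtcatctcctcccgc
The third set holds sites at the start of the rod, listed for KRT17 with PDCD4 and for KRT18 with IgG (chr17:41624202-41624230, minus strand, and chr12:52949445-52949473, plus strand).
KRT17 rod start, PDCD4, 5 cDNAs: cgcctggcctcctaCctggacaaggtgcg
KRT18 rod start, IgG, 3 cDNAs: tggcctcttacctgGacagagtgaggagc
The last sequence is that of the single KRT14 site, in the final codon before the stop codon (chr17:41582425-41582453, minus strand).
KRT14 tail, PDCD4, 3 cDNAs: ccttcgcaccaagaActgaggctgcccag

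Of the 9 type I keratins, 4 had a listed PDCD4 site (KRT14, KRT15, KRT17 and KRT18) and 4 had a listed IgG site (KRT10, KRT15, KRT17 and KRT18). Among all annotated protein-coding genes, 55.0% had a PDCD4 site and 51.4% an IgG site, so the keratins were listed at about the background rate. KRT13, KRT16, KRT19 and KRT23 had no site in either list, and neither did any of the other 20 type I keratins, most of them keratins of hair and its root sheath. Since positions failing the false discovery rate filter were not listed, a gene without a site is not shown to be unbound. RNA abundance was not analysed here, and a low sum cannot tell less RNA per cell from fewer cells with that RNA.

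KRT17 had the largest sum, with 37 cDNAs at 10 PDCD4 sites and 18 cDNAs at 4 IgG sites. KRT18 followed with 27 cDNAs at 8 PDCD4 sites and 10 cDNAs at 3 IgG sites. KRT15 had 22 cDNAs at 6 PDCD4 sites and 4 cDNAs at 1 IgG site. KRT14, a defining keratin of basal cells, had 3 cDNAs at 1 PDCD4 site and no IgG site, and KRT10 had 2 cDNAs at 1 IgG site and no PDCD4 site. By PDCD4 sum, not divided by length, KRT17 ranked at place 3107 of the 12912 genes with a PDCD4 site, KRT18 at 4137, KRT15 at 4863 and KRT14 at 10633.

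To compare levels between genes, sites in exons of the canonical mRNA were summed and divided by its length. In the PDCD4 list KRT17 had 18.5 exonic cDNAs per kb (exact Poisson interval 12.3 to 26.7), KRT18 13.4 (8.10 to 21.0), KRT15 7.59 (4.04 to 13.0) and KRT14 1.83 (0.378 to 5.36). The intervals of each neighbouring pair in this order overlapped, whereas those of KRT17 and KRT18 both lay above that of KRT14. In the IgG list KRT17 had 7.91 (4.09 to 13.8) and KRT18 7.08 (3.39 to 13.0) exonic cDNAs per kb, values that were not separated by counting error. KRT15 had no exonic IgG site on this mRNA, and KRT10 had 0.933 (0.113 to 3.37).

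**Figure D1:**
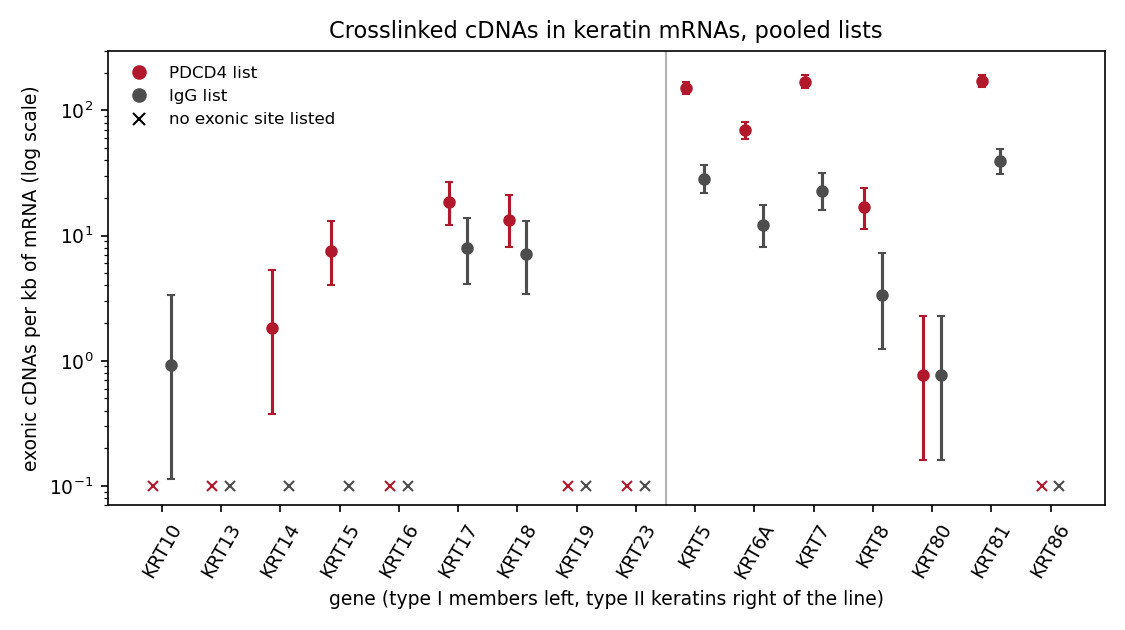
Exonic cDNAs per kb of canonical mRNA on a log axis, not scaled for the depth of the lists, for the 9 type I members (left) and the 7 type II keratins with a listed site (right). Points are the pooled lists, bars are exact 95% Poisson intervals and crosses mark genes with no exonic site listed. KRT17 was the highest type I keratin with 18.5 in the PDCD4 list, below KRT5 with 151.

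Relative to the total of each list, the type I keratins held 2.17 of every 10000 PDCD4 cDNAs (89 cDNAs) and 1.23 of every 10000 IgG cDNAs (34 cDNAs). With 1 cDNA added to each sum, the log2 ratio of these shares was 0.79 (0.23 to 1.36), a 1.73-fold higher share in the PDCD4 list. The interval lay above 0, and the median of the 9585 genes with at least 10 cDNAs over both lists was -0.08. This difference has no replicate check, and its interval included 0 when sites were counted in place of cDNAs (log2 0.87, -0.19 to 1.92).

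KRT15, KRT17 and KRT18 reached 10 cDNAs over both lists. The log2 ratio was 1.63 (0.24 to 3.03) for KRT15, 0.78 (-0.23 to 1.79) for KRT18 and 0.43 (-0.36 to 1.23) for KRT17, so that among these 3 genes the interval lay above 0 for KRT15 only. The KRT15 interval included 0 with 5 cDNAs added in place of 1 (1.02, -0.07 to 2.11) and when sites were counted (1.29, -0.97 to 3.56). KRT15 was the single member of these 3 with at least a 2-fold higher share in the PDCD4 list, and no member was 2-fold lower. Over all 9585 genes, 18.8% were at least 2-fold higher and 18.1% at least 2-fold lower, so 1 of 3 is not a result about the family. The log2 ratio of KRT15 exceeded that of KRT17 by 1.20 (-0.40 to 2.81), that of KRT15 exceeded that of KRT18 by 0.85 (-0.87 to 2.57), and that of KRT18 exceeded that of KRT17 by 0.35 (-0.93 to 1.63). None of these 3 differences was resolved at this depth.

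**Figure D2:**
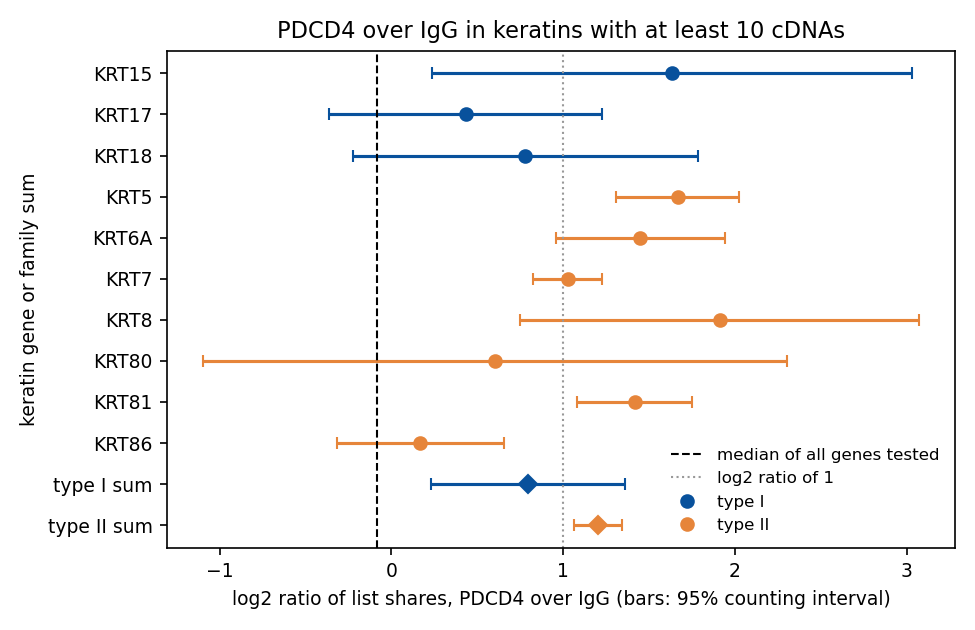
Log2 ratio of the PDCD4 share over the IgG share for keratins with at least 10 cDNAs over both lists (circles) and for the family sums (diamonds), with 95% counting intervals. The dashed line is the median of all genes tested (-0.08) and the dotted line a log2 ratio of 1. Only the KRT15 interval among the 3 type I genes lies above 0, and the family intervals overlap.

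Only 1 PDCD4 site in the family had a score greater than 5, the threshold that the methods apply, and so did 1 IgG site. Both were in KRT17, with 10 cDNAs in the 5′UTR for PDCD4 and 8 cDNAs in coding sequence of the tail for IgG. Of all genes with a PDCD4 site, 8.36% had a site above this threshold, and of those with an IgG site 5.07%. At this threshold the summed log2 ratio of the family turned to -1.67 (-2.94 to -0.40), and it then rested on these 2 sites alone. The remaining 24 PDCD4 sites had scores from 1 to 5, and the median over all 25 was 3, against a median of 2 over the whole list.

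KRT17, a keratin of basal and wounded epithelium, had PDCD4 sites from exon 1 to exon 8, its last. In order of transcription its PDCD4 sites had 10, 4, 5, 3, 3, 3, 3, 3, 1 and 2 cDNAs. The first 3 lay in exon 1, and the site of 10 cDNAs (position 41624572) was the nucleotide numbered 4 of the canonical mRNA, 63 nt before the start codon. Whether cDNAs that end so near the start of an mRNA mark a linked nucleotide was not tested. The IgG list also had such a site, at nucleotide 6 of the KRT18 mRNA. The site of 4 cDNAs lay in the codon of residue 17 of the head, and the site of 5 cDNAs in that of residue 98, which is residue 8 of the rod. Further PDCD4 sites lay in exon 3 (rod, residue 195), in exon 6 (rod, residue 322), in introns 1 and 7 of the canonical transcript and, adjacent to each other, in the 3′UTR. The IgG sites of KRT17 had 4 cDNAs in the head (residue 65), 3 each at 2 sites in intron 7, and 8 in the tail (residue 420). No rod site of KRT17 was listed for IgG, against 3 rod sites with 11 cDNAs for PDCD4, and this difference was not tested. At all 3 of these rod sites the next 30 nt also occur in transcripts of other genes, KRT17P1 among them, and without such sites KRT17 had no rod site in either list.

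KRT18, the simple-epithelial partner of KRT8, had PDCD4 and IgG sites in different exons. Its 8 PDCD4 sites had 5, 3, 4, 4, 4, 3, 2 and 2 cDNAs in order of transcription and all lay downstream of exon 1, from intron 1 to exon 7. Its 3 IgG sites, with 4, 3 and 3 cDNAs, all lay in exon 1. The first of these was the nucleotide numbered 6 of the canonical mRNA, 51 nt before the start codon. The others lay in the codons of residues 96 and 102, at residues 10 and 16 of the rod. At both of these rod sites the next 30 nt also occur in transcripts of other genes. Without such sites, KRT18 kept only the IgG site of 4 cDNAs. The PDCD4 sites in coding sequence fell on rod residues 108, 155 and 165 (residues 194, 241 and 251 of the protein) and on residues 415, 422 and 423 of the tail. With 8 and 3 sites, this layout is a description and was not tested.

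In KRT15, a keratin of basal cells, 3 of the 6 PDCD4 sites, with 5, 5 and 3 cDNAs, fell in the head in exon 1, at residues 74, 81 and 93. Another 2, with 3 cDNAs each, were intronic to the canonical transcript (introns 1 and 7), and the last, also with 3 cDNAs, lay upstream of it in the 5′UTR of another annotated transcript. The 1 IgG site of KRT15, with 4 cDNAs, lay in intron 6 of the canonical transcript, in an exon of a noncoding one. The string ggcTttgg was present around 2 of the KRT15 head sites, where it encloses the listed nucleotide. Searched on the transcribed strand, its letters GGCTTTGG occurred 4 times in the KRT15 mRNA, and 5.23% of its 29-nt windows held them, against 1.63% of the windows over all 9 mRNAs. It was chosen after the sequences were seen and is a description.

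The KRT14 site (position 41582439) lay in the codon of residue 472 of 472, the last before the stop codon, in exon 8. KRT10 carries its 1 IgG site in the 3′UTR in exon 8. On the strand opposite to KRT10, which belongs to the gene labelled TMEM99, there was 1 PDCD4 site with 2 cDNAs and 1 IgG site with 3 cDNAs. No member had a same-strand site inside its limits under another gene's label.

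**Figure D3:**
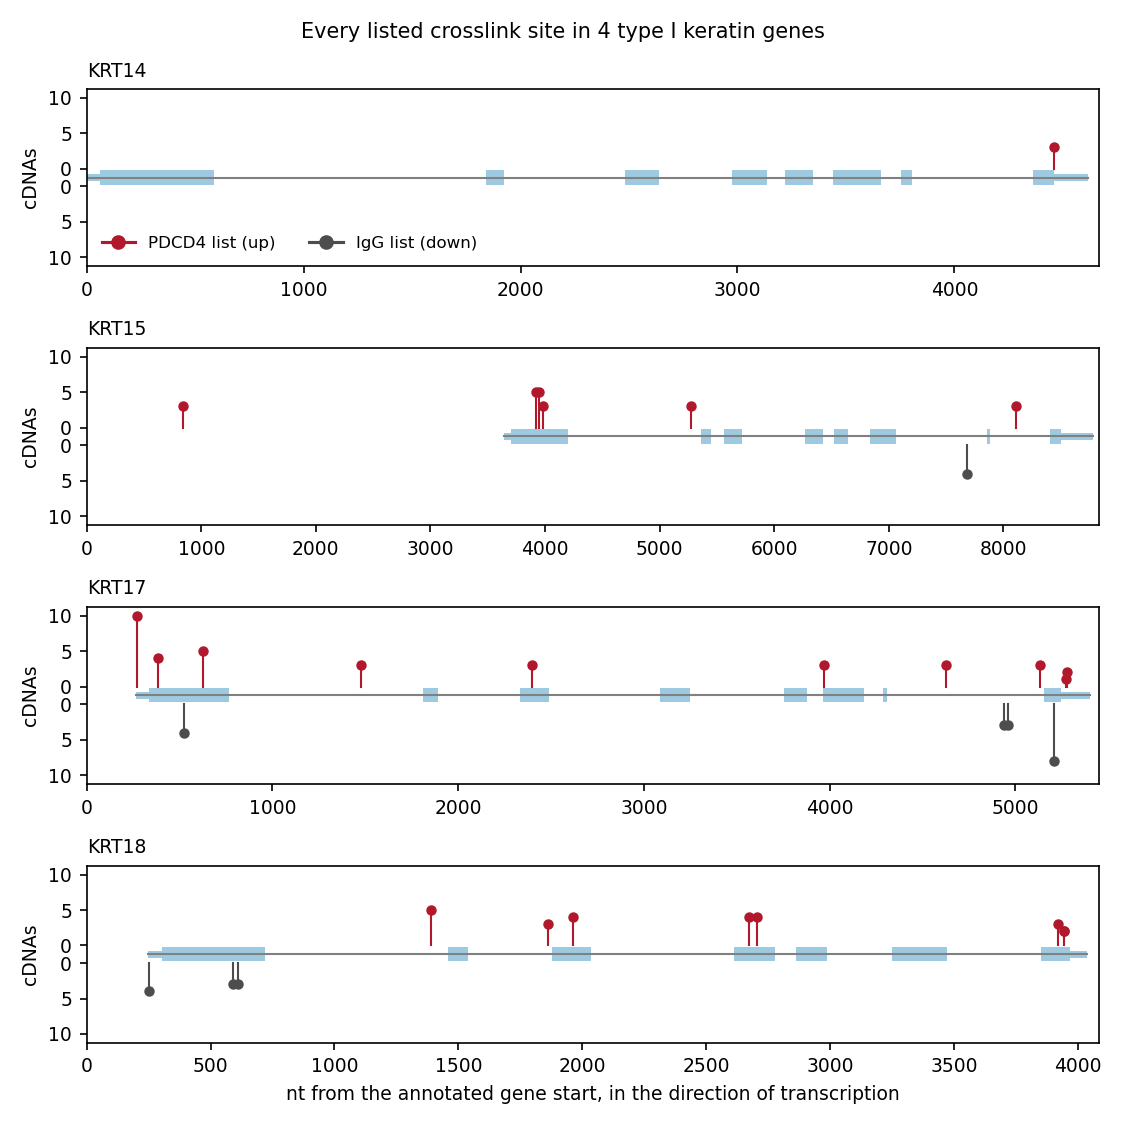
Every listed crosslink site in KRT14, KRT15, KRT17 and KRT18 against the distance from the annotated gene start in nt, in the direction of transcription. Red stems upwards are PDCD4 sites and grey stems downwards IgG sites, with height in cDNAs; wide boxes are coding exons, narrow boxes untranslated exons and the line introns of the canonical transcript. The KRT18 IgG sites lie in exon 1 and its PDCD4 sites downstream of it.

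Coding sequence held 14 of the 25 PDCD4 sites of the family, or 56.0% by the Wilson method with bounds of 37.1% and 73.3%, while the 1 site with a score greater than 5 was not coding. Of the other 11, 3 lay in 3′UTRs, 2 in 5′UTRs, 3 in exons of noncoding transcripts and 3 in introns. For the groups compared here, a site was counted once for each gene in its label. The coding share was 20.3% over all genes and 33.8% (191 of 565) over type II keratins. The type I interval lay above the first value and overlapped the end of the type II interval, which reached 37.8%. Overlap of intervals does not decide whether the families differ, and their difference was not tested. In the IgG list, 4 of the 9 type I sites were coding (44.4%, 18.9% to 73.3%), against 9.43% over all genes and 17.5% (12.6% to 23.8%) over type II keratins. A higher coding share than that of all genes was therefore found with both antibodies. With the canonical transcript of each gene alone, 14 PDCD4 sites stayed coding and 8 lay outside its exons, 7 of them in introns and 1 upstream (32.0%, 17.2% to 51.6%), against 57.2% over all genes counted in the same way.

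The rod, from the helix initiation to the helix termination motif, measured 300 to 304 residues in all 9 members. Of the 14 coding PDCD4 sites, 6 fell in the rod (42.9%, 21.4% to 67.4%), 4 in heads and 4 in tails. Without sites in shared sequence (defined below), 2 of 9 fell in the rod (22.2%, 6.32% to 54.7%). In the 4 keratins with a PDCD4 site, the rod makes up 67.4% of the coding nucleotides, the heads 22.8% and the tails 9.83%. Tails thus held 28.6% (11.7% to 54.6%) of the coding sites on 9.83% of the coding sequence, of which 3 sites with 7 cDNAs were in KRT18 and 1 in KRT14. Of the KRT18 tail sites, those at residues 422 and 423 lay in neighbouring codons, and the other was in shared sequence. The interval takes each as a separate site, and an excess in tails was not tested. The IgG list had 2 coding sites in rods, 1 in a head and 1 in a tail. In the rod, KRT17 and KRT18 had PDCD4 sites at residues 105 and 108, respectively, while near the rod start the KRT17 site of PDCD4 (residue 8) and the KRT18 site of IgG (residue 10) lay close to each other in the shared helix initiation region.

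On the exons of canonical transcripts, 17 PDCD4 sites with 63 cDNAs were exonic. The 11 of them outside the last exon all lay at least 69 nt from the end of their exon, and the 4 such IgG sites at least 111 nt. In internal exons, 0 PDCD4 sites lay in the last 60 nt and 4 in the 60 nt before them, too few for the ratio of these windows (log2 -2.32, -5.42 to 0.78) to be resolved. In cDNAs the windows held 0 and 15 (log2 -4.00, -6.92 to -1.09), an interval below 0 that takes the cDNAs of these 4 sites as independent. Type II keratins had 1 and 41 PDCD4 sites in the same windows (log2 -4.39, -6.44 to -2.35). Their IgG sites there numbered 0 and 3 (log2 -2.00, -5.16 to 1.16). With windows of 80 nt, type I keratins had 1 PDCD4 site in each. Type II keratins had 17 and 36 PDCD4 sites (log2 -1.04, -1.85 to -0.23) and 1 and 7 IgG sites (log2 -2.00, -4.24 to 0.24). Fewer type II sites at exon ends were thus listed with either antibody, though on few IgG sites. Of the 7 intronic PDCD4 sites in canonical transcripts of the type I keratins, 4 lay in the last 100 nt of their intron, 20 nt and 19 nt before its end in KRT17 and KRT18 and 67 nt and 87 nt before it in KRT18 and KRT15. Both of these KRT18 sites lie in exons of noncoding transcripts. None of the 3 intronic IgG sites lay in the last 100 nt, and this contrast was not tested. The share of intron length within these 100 nt was not measured, so 4 of 7 is not read as an enrichment.

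Keratins share sequence with each other and with pseudogenes, so cDNAs may be placed in the wrong copy or lost. A position of an mRNA was called shared where the next 30 nt occurred exactly in an annotated transcript of another gene. This held for 68.4% of the KRT18 mRNA, which is shared with 68 genes led by its pseudogene KRT18P11, and for 48.6% of KRT14, 40.3% of KRT16 and 39.3% of KRT17. It held for 12.8% of KRT19, 5.83% of KRT15, 3.62% of KRT13, 0.189% of KRT10 and none of KRT23. Members without a listed site were thus found among both the more and the less shared mRNAs. Of the 17 exonic PDCD4 sites, 5 were at shared positions (29.4%), against 39.1% of the mRNA positions of the 4 keratins with a PDCD4 site. These were 3 of KRT17 and 2 of KRT18, among them the KRT17 site at the rod start, and none was shared with a protein-coding transcript of another gene. Without sites in shared sequence, the log2 ratio was -0.06 (-0.91 to 0.79) for KRT17 and 1.50 (0.10 to 2.91) for KRT18. The KRT18 value then rested on 20 PDCD4 cDNAs and on 4 IgG cDNAs at 1 site. Then 2 of the 3 members were at least 2-fold higher in the PDCD4 list, and the family sum was 0.74 (0.12 to 1.37).

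The nucleotides at the 25 PDCD4 sites were C at 10, A at 7, T at 5 and G at 3, and those just before them were A at 8, T at 7, C at 6 and G at 4. The mRNAs of the 9 members consist of 27.1% C, 23.4% A, 19.2% T and 30.2% G. The 29-nt windows had a median GC content of 58.6% at PDCD4 sites and 62.1% at IgG sites. After IgG positions were subtracted, 721 positions over all genes stood in both lists, and none of them was in a type I keratin. With so few left by the processing, this absence is not a result about the keratins. No type I keratin site carried more than 1 gene label.

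The type II partner family gave higher levels. Of 26 type II keratins, 7 were listed for each antibody, a smaller share than the 55.0% and 51.4% of all protein-coding genes, with 1811 cDNAs at 565 PDCD4 sites and 531 cDNAs at 177 IgG sites. These totals count a site once for each type II keratin in its label. The largest PDCD4 sums were those of KRT7 (808 cDNAs), KRT5 (352), KRT81 (351), KRT6A (165) and KRT86 (89, none of them exonic). Per kb of mRNA, KRT5 had 151 exonic PDCD4 cDNAs (136 to 168), KRT7 170 (150 to 191) and KRT81 172 (154 to 191), all above the interval of KRT17, the highest type I keratin. The summed log2 ratio of type II was 1.20 (1.06 to 1.34), and the type I value differed from it by -0.41 (-0.99 to 0.17), an interval that includes equal ratios. Of the type II mRNA positions 16.1% were shared, against 21.8% for the 9 type I mRNAs.

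Usual filament partners were then set side by side in exonic PDCD4 cDNAs per kb. KRT14, with 48.6% of its mRNA shared, had 1.83 (0.378 to 5.36) where KRT5, with 8.56% shared, had 151. KRT17 had 18.5 (12.3 to 26.7) where KRT6A, with 53.6% of its mRNA shared, had 69.8 (59.4 to 81.4). KRT18 had 13.4 (8.10 to 21.0) where KRT8 had 16.8 (11.3 to 24.0), so this pair alone of the 3 had overlapping intervals. The shared part was 39.3% in KRT17, 68.4% in KRT18 and 61.3% in KRT8. How many cDNAs each gene lost or gained through shared sequence was not tested, so these gaps need not reflect partner levels. The log2 ratio of PDCD4 over IgG was lower for KRT17 than for KRT6A by a difference of -1.02 (-1.95 to -0.08). That interval takes cDNAs as independent. It was not checked with sites counted, of which PDCD4 and IgG had 10 and 4 in KRT17 and 55 and 12 in KRT6A. For KRT18 against KRT8 the difference was -1.13 (-2.67 to 0.41) and for KRT15 against KRT5 -0.03 (-1.47 to 1.41), and neither was resolved. KRT14, with no IgG cDNA, gave no fold to set against KRT5.

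Proteins that tie keratins to desmosomes and hemidesmosomes or organise the filaments were listed in 19 of 20 cases for PDCD4. For IgG they were listed in 18 of 20, so most had a site with either antibody, against 55.0% and 51.4% of all protein-coding genes. Of the 19 with a PDCD4 site, 7 were at least 2-fold higher and 2 at least 2-fold lower in the PDCD4 list, against 18.8% and 18.1% of all genes tested. The largest PDCD4 sums belonged to PLEC (4278 cDNAs, 193 for IgG), a plakin of hemidesmosomes, ITGB4 (439 and 118), DST (350 and 198), FAM83H (259 and 56) and DSP (236 and 91), a plakin of desmosomes.

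The label of breast epithelium was checked against markers. Of the basal markers, ITGB4 (439 PDCD4 cDNAs), KRT5 (352), CDH3 (58), KRT17 (37), TP63 (28) and KRT14 (3) had a PDCD4 site, and all of these but KRT14 had an IgG site. Of 8 luminal markers, 7 had a PDCD4 site (146 cDNAs, led by MUC1, KRT8, KRT18, EPCAM and GATA3) and 5 an IgG site, against 55.0% and 51.4% of all protein-coding genes, and KRT19 had neither. The luminal markers listed for PDCD4 but not for IgG had 1 site of 2 cDNAs each. Of 8 markers of cornifying epidermis none had a PDCD4 site under its exact symbol, KRT10 included. A marker that the authors' labels give under an older symbol would be missed by this match. Among fibroblast, leukocyte and endothelial markers DCN alone was listed, with 2 cDNAs for each antibody.

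The genes whose pattern was closest to the type I sum were sought among 791 genes with at least 100 PDCD4 cDNAs, by the distance over 5 measures (the shares of PDCD4 cDNAs in coding sequence, 3′UTR, 5′UTR and intron, and the log2 ratio). The type I keratins had 56.2%, 6.74%, 14.6% and 10.1% in these regions. The nearest were ATN1 (distance 0.213), CAMSAP1 (0.222), TLN1 (0.227), MACF1 (0.265) and CHD4 (0.269), with log2 ratios between 0.63 and 0.81. Their 5′UTR shares, from 1.52% to 6.34%, were all below that of the type I keratins, of which the single KRT17 site supplied 10 of 13 cDNAs.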

How the data were processed

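Crosslink sites of PDCD4 and IgG immunoprecipitations from MCF10A cells, with 2 replicates each, were analysed. The authors mapped reads to the human genome (Ensembl release 88, GRCh38), subtracted IgG crosslink sites from the PDCD4 replicates, merged replicates and called sites with iCount. The deposited score is a count of cDNAs at a single nucleotide that was not normalized, and the filter on scores greater than 5 was not applied in the deposited lists. The handling of reads with several matches is not given in the sources used here.

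Regions, exons and transcripts were taken from GENCODE release 44 on the same build. Shares have Wilson intervals, levels exact Poisson intervals, and log2 ratios of list shares (1 cDNA added) intervals from the counting error of both sums. The rod was located in the translated coding sequence, since no protein table was used here. The members and lists were chosen with earlier results of these data known. Genes named are all members, the 5 with the largest PDCD4 sum of the type II, partner and luminal lists, the basal markers reported, and the 5 most similar genes. A marker gene is not reported here. DCN, TMEM99 and KRT18P11 were named after their values were seen. Scripts were tested on simulated data. Python 3.11.15, numpy 2.4.6, pandas 2.3.3, scipy 1.17.1, matplotlib 3.10.9 and biopython 1.88 were used.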

Additional observations from a re-analysis of the deposited data

How the results depend on the processing

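Each list pools its replicates, so a result that rests on 1 replicate could not be seen and no replicate could be left out. No paired analysis was possible because the pooled lists hold no value per replicate. Depth is a limit, since 89 PDCD4 and 34 IgG cDNAs carry every statement on the family. The summed log2 ratio of 0.79 kept its sign in 7 of 8 alternatives and turned to -1.67 with scores greater than 5, where 1 site per list remained. Leaving out positions in both lists or sites of several genes removed no type I keratin site. Leaving out mitochondrial sites changed the list totals only. These settings could therefore hardly move the ratio or the members, and their agreement is no check. The number of members at least 2-fold higher in the PDCD4 list was 1, became 0 with scores greater than 5 and 2 without sites in shared sequence, and was 1 in the other 6 alternatives. In 1 of these, with scores greater than 5 for PDCD4 and greater than 3 for IgG, that member was KRT17 (1.17) in place of KRT15, and the interval of the summed ratio included 0 (0.48, -0.58 to 1.53). The log2 ratio of KRT17 also turned sign without sites in shared sequence (-0.06). The rod share of 42.9% ranged from 22.2% without sites in shared sequence to 50% with sites within 20 nt merged. For KRT17 the log2 ratio was -1.67 with scores greater than 5. At scores greater than 10 no site of the family remained. At scores greater than 5 no coding site and no site in the exon-end windows remained, so the rod and exon-end values are over every listed site. The coding share at scores greater than 5, set as the main value, was 0 of 1 site, and the shared-sequence share was 0 of 1.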
